A study of Arabidopsis thaliana with 60 samples.

Results

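The comparison set 10 arrays of Arabidopsis thaliana seedlings treated with propiconazole, uniconazole, paclobutrazol, Brz220 or Brz91 against 6 arrays of seedlings treated with prohexadione, daminozide (also written B9) or NPA. These 16 of the 60 arrays in the series were chosen by their labels alone: bracket F1, 3 h of treatment and a dose of 10 µM for all 8 compounds, with 2 arrays per compound. The mock (untreated control) arrays had no weight in the contrast and are used below only as a separate reference. All groups were wild-type Col-0, 7 days old and grown at 23 degrees, and RNA came from whole seedlings, so less RNA per cell and fewer cells of a type cannot be told apart. The 2 arrays of a compound carry the replicate numbers 1 and 2; whether these stem from different cultures is not in the labels, and p-values here reflect array-to-array spread alone, possibly technical. The first 5 compounds are called the azole group here after the name given to the comparison; for Brz220 and Brz91, which are code names, no chemical class is asserted. The other 3 are called the comparison group.

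Propiconazole, uniconazole and paclobutrazol are triazoles, compounds whose ring nitrogen binds the haem iron of cytochrome P450 enzymes. Uniconazole and paclobutrazol are used as growth retardants because they block an early P450 step of gibberellin synthesis, propiconazole is a fungicide that acts on a P450 of sterol synthesis and also lowers brassinosteroid levels in plants, and Brz220 and Brz91 belong to a series of brassinosteroid synthesis inhibitors. Prohexadione and daminozide resemble 2-oxoglutarate and block late, non-P450 steps of gibberellin synthesis, and NPA blocks polar auxin transport. The comparison therefore asks which transcripts separate the azole group from growth regulators with other targets, without relying on the untreated arrays.

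Values are deposited intensities in arbitrary units, and differences are on the scale of log2(intensity + 133.4), so they understate the change of dim probe sets. A probe set, the group of probes on the array that reports 1 transcript, was called where the Benjamini-Hochberg adjusted p of a limma fit over 17301 probe sets was under 0.05. Of 12 root markers 6 were measured, and of 12 green tissue markers 2. Their sums are given without another tissue for reference, so they cannot test the labelled tissue. The 6 measured root markers summed to between 46140 and 67185 on azole arrays, between 51257 and 76310 on comparison arrays and between 58403 and 65569 on mock arrays. The 2 measured green tissue markers, RCA and LHCB4.3, summed to between 13320 and 25794, between 10392 and 31726 and between 19816 and 22819. No marker was at 0 on any array, which says little, since the lowest intensity in the data was 0.2. The ratio of the 3′ to the 5′ actin probe set, a measure of RNA integrity, lay between 1.24 and 1.59 on azole arrays and between 1.33 and 1.64 on comparison arrays. On the mock arrays it lay between 1.43 and 1.89, so the lower mock array was within both ranges and the higher above both. The GAPDH ratio lay between 0.920 and 1.19, between 0.959 and 1.21 and, on mock arrays, between 0.865 and 0.947. Their part in the comparisons with the mock was not tested. The 2 arrays of a compound correlated between 0.959 and 0.979.

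At 3 h, 273 probe sets separated the groups, 143 higher and 130 lower in the azole group, which is 1.58% of those tested (0.827% higher and 0.751% lower). The differences were small: their median size was 0.43 on the log2 scale, a 1.35-fold change, and only 4 reached 1 (3 higher and 1 lower). The named genes with the largest differences were AT5G01740 and the pirin gene PRN, higher by 1.35 ± 0.11 (SE) and 1.02 ± 0.11, followed by AT1G47400, a gene known from iron deficiency, higher by 0.97 ± 0.14. GH3.3, which encodes an enzyme that conjugates auxin to amino acids, had a difference of -0.97 that rested on NPA and was 0.06 (adjusted p = 0.899) with NPA left out. PYE, also known from iron deficiency, was higher. The expansin gene EXPA8 and the xyloglucan-modifying enzyme gene XTH19, both acting on the cell wall, were lower. All arrays of replicate number 1 share another intensity level than those of number 2, and the count depended on the term for the replicate number: 12 probe sets were called with no term for the replicate number (831 at unadjusted p under 0.05, against 2828 with it), and 108 when arrays were rescaled to a common level instead. The cause of the drop was not tested. Counting compounds as the replicates, 5 against 3, left 10.

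**Figure D1:**
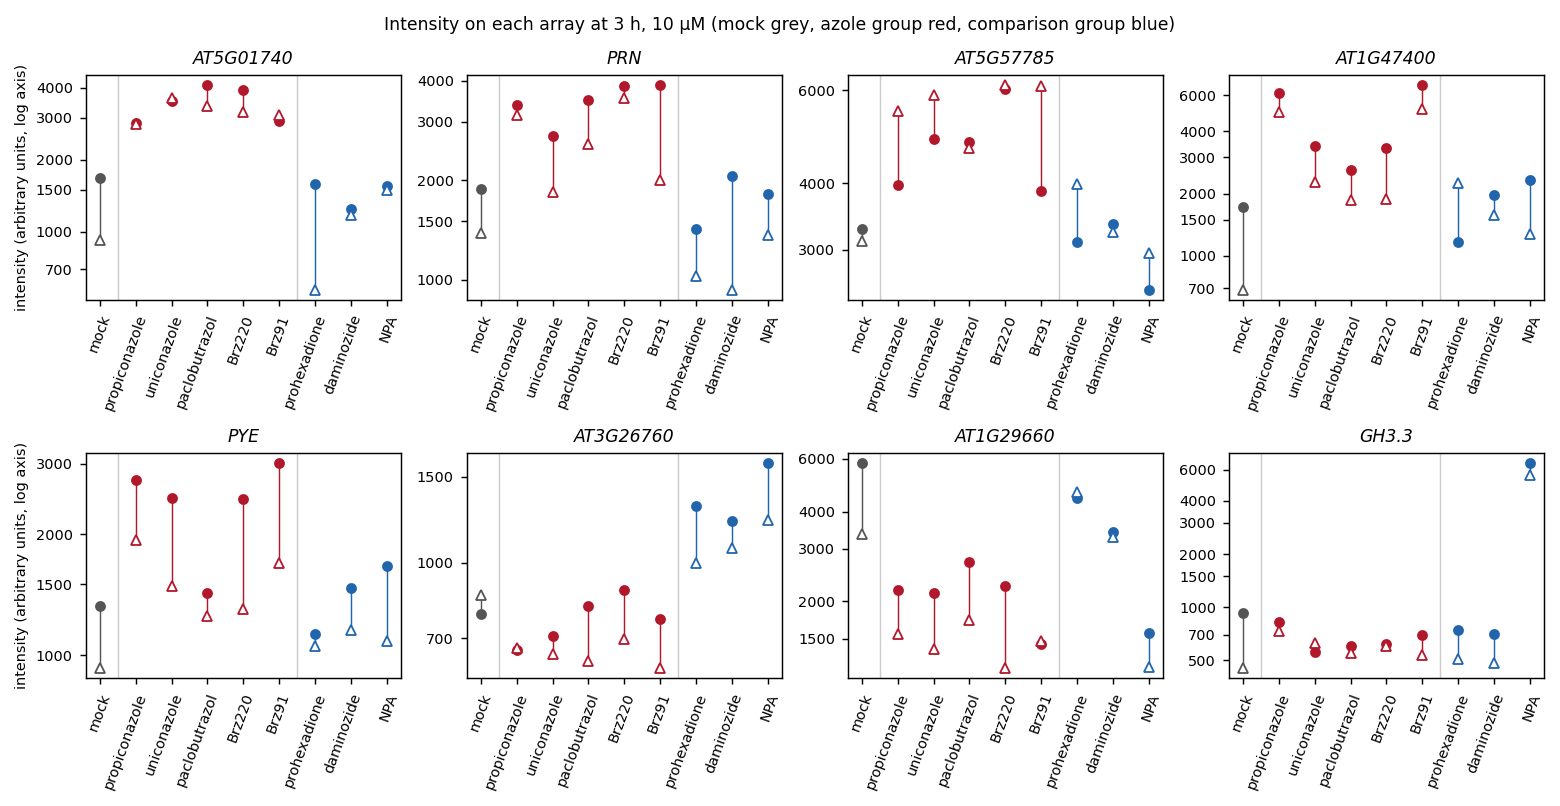
Deposited intensity (arbitrary units, log axis) of 8 genes on each array at 3 h. Each column is a compound, filled circles are replicate 1, open triangles are replicate 2, the mock is grey, the azole group red and the comparison group blue. AT5G01740 lies between 2832 and 4110 on the 10 azole arrays and between 573 and 1586 on the 6 comparison arrays, whereas GH3.3 stands out only on the NPA arrays, at 5609 and 6548.

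Of the 135 called probe sets that name 1 gene, 74 were higher and 61 lower in the azole group. A stricter description is that all 5 azole arrays lay beyond all 3 comparison arrays within each replicate number; 49 of the called probe sets did so (18 higher and 31 lower), against 76 of all probe sets, or 0.439%. Since the contrast chose these probe sets, this is a description and not further support. Each of the 5 azole compounds lay on the same side of the comparison group in 267 of the 273, and the azole mean lay on the same side of each comparison compound in 251. Over all probe sets these shares were 32.9% and 35.3%.

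AT5G01740 was the named gene with the clearest separation. Its intensity ran from 2832 to 4110 on the azole arrays, with a median of 3270, and from 573 to 1586 on the comparison arrays, with a median of 1371. The lowest azole array, propiconazole replicate 2, was above the highest comparison array, prohexadione replicate 1. Of the mock arrays, the 1 at 1687 was just above the comparison range and the other, at 928, within it, both below every azole array. Each azole compound was called against the comparison group, paclobutrazol at 1.51, uniconazole at 1.45, Brz220 at 1.44, Brz91 at 1.21 and propiconazole at 1.14 (adjusted p between 1.05e-06 and 0.000292). The azole mean exceeded prohexadione by 1.64, daminozide by 1.36 and NPA by 1.05. The full difference was 2.55-fold (adjusted p = 6.22e-11). None of the 10 further compounds of the same bracket (PNO8 at 1 µM, the other 9 at 10 µM) reached the lowest azole mean of 11.54: the nearest was TIBA, another auxin transport inhibitor, at 10.70 on the log2 scale. The gene table names this locus, and most of those below, by its locus identifier alone, and no role is given for them.

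PRN, which encodes a pirin, a protein of the cupin fold, gave 3846 and 3547 on the Brz220 arrays and 3883 and 2007 on those of Brz91. It gave 3377 and 3140 for propiconazole, 3500 and 2573 for paclobutrazol and 2713 and 1847 for uniconazole. The comparison arrays lay between 932 and 2060, so the uniconazole replicate 2 and Brz91 replicate 2 arrays fell within their range, although the groups did not overlap within either replicate number. The gene was higher by a factor of 2.04 in the azole group (adjusted p = 2.23e-07), and against the comparison group uniconazole was the azole compound not called, with 0.64 (adjusted p = 0.142). The mock stood at 1882 and 1388, and the azole mean exceeded it by 0.82 (adjusted p = 0.0104). Silver nitrate, an inhibitor of ethylene perception, was the only further compound of the bracket with a mean above the lowest azole mean (11.73 against 11.21).

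AT5G57785 had a median of 5166 on azole arrays (3869 to 6139) and of 3166 on comparison arrays (2518 to 3986). The groups overlapped across replicate numbers, by the propiconazole and Brz91 replicate 1 arrays, at 3968 and 3869, and the prohexadione replicate 2 array at 3986. The difference was 0.67 ± 0.10 (adjusted p = 0.000206), and Brz220 had the largest, 0.92. No further compound of the bracket reached the lowest azole mean. AT5G64120, whose synonym in the gene table is peroxidase 71, ran from 5281 to 10563 on azole arrays and from 3928 to 5133 on comparison arrays, with no overlap. It was higher by 0.53 ± 0.10 (adjusted p = 0.00245), and of the single compounds only Brz91 was called (0.85), with paclobutrazol at 0.36.

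The called probe set with the largest difference has no gene in the annotation used here. It and another pair without names were picked out after their values were seen. They were taken because they belong to the 6 probe sets in which the azole mean was called against each of the 3 comparison compounds on its own. Probe set 256598_at ran from 4243 to 5922 on azole arrays and from 1217 to 2026 on comparison arrays, with the mock at 986 and 954, and was higher by 1.64. Probe set 267305_at ran from 1726 to 3136 against 771 to 1639 and was higher by 0.93. Probe set 248282_at ran from 611 to 1082 against 1102 to 3122 and was lower, by -1.08. The groups did not overlap in any of these, although Brz91 replicate 1 and prohexadione replicate 1 lay close together in 248282_at, at 1082 and 1102. The remaining 3 of the 6 were AT5G01740, PRN and AT3G26760. Only AT5G01740, 256598_at and 267305_at were also called in each of the 5 azole compounds on its own.

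Plants short of iron switch on a set of genes, among them that of the basic helix-loop-helix factor PYE (POPEYE). Of a list of 23 such genes, chosen with earlier results of these data known, 7 were measured. Of these 3 were higher, 0 were lower and 4 were not called, and the median difference of the 7 was 0.38, beside -0.02 and 0.827% called higher over all probe sets. Because of how the list was chosen, this is a description and not separate support. With no term for the replicate number 1 of the 3, AT1G47400, stayed called (PYE and AT5G05250 at adjusted p = 0.356 and 0.352). AT1G47400 carried the largest difference. Its arrays read 6725 and 5120 with Brz91 and 6147 and 4942 with propiconazole. They read 3412 and 2269 with uniconazole, 3312 and 1887 with Brz220 and 2616 and 1875 with paclobutrazol. The comparison arrays lay between 1173 and 2330 and the mock arrays at 1719 and 685. The propiconazole and Brz91 arrays were above every comparison array, while the replicate 2 arrays of the other 3 azole compounds lay within the comparison range. The group difference was 0.97 ± 0.14 (adjusted p = 0.000121), made up of 1.62 with propiconazole and 1.71 with Brz91, both called, and 0.67 with uniconazole, 0.52 with Brz220 and 0.35 with paclobutrazol, none called.

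PYE also was highest with propiconazole and Brz91 and lowest with paclobutrazol among the azole compounds. Its intensity ran from 1253 to 3009 on azole arrays (median 1817) and from 1056 to 1666 on comparison arrays (median 1143), and both paclobutrazol arrays and the Brz220 and uniconazole replicate 2 arrays lay within the comparison range. The difference was 0.56 ± 0.09 (adjusted p = 0.000642), with 0.82 for propiconazole and 0.80 for Brz91 called, and 0.57 for uniconazole, 0.48 for Brz220 and 0.10 for paclobutrazol not called. AT5G05250 showed 1.09 with propiconazole and also 1.09 with Brz91, both called, against 0.23 to 0.37 with the other 3, and 0.63 ± 0.15 over the group (adjusted p = 0.0249). Leaving out any of 6 of the 16 arrays ended that last call. BHLH101, a helix-loop-helix factor of the same response, differed by 0.38 (adjusted p = 0.29), AT3G13610 (F6'H1, an enzyme of coumarin synthesis) by 0.12, AT1G74770 by 0.08 and AT3G07720 by 0.07, none of them called. Of the further 10 compounds of the bracket, 3 (PNO8 at the lower dose of 1 µM, ibuprofen and MG132) had higher log2 means than any azole compound for AT1G47400 (12.72 to 12.87 against at most 12.55) and for PYE (11.29 to 11.36 against at most 11.25). The mock of bracket G, at 12.57, was also at the highest azole level for AT1G47400. For AT5G05250 the mock of bracket G was at 11.4, near the highest azole mean of 11.44. Of the 10 further compounds 8 were below that mean, and PNO8 at 1 µM was the highest, at 11.65. Above the lowest azole mean were 6 of the 10 for AT1G47400, 8 for PYE and 7 for AT5G05250.

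The genes lower in the azole group included some in which the groups separated fully. AT3G26760 ran from 608 to 880 on azole arrays (median 683) and from 999 to 1600 on comparison arrays (median 1221), with no overlap. It was lower by -0.70 ± 0.08 (adjusted p = 1.07e-06), with a narrow range of -0.77 to -0.56 over the 5 azole compounds. Here the mock arrays, at 784 and 860, lay inside the azole range, and the azole mean differed from the mock by -0.19 (adjusted p = 0.638). AT3G06770, AT1G12990 and AT2G32560 were lower by between -0.45 and -0.40. AT4G28780 was lower by -0.61 ± 0.11 (adjusted p = 0.00127), with Brz220 at -0.83, the compound called on its own, and paclobutrazol at -0.28. PUP15, a member of the purine permease family, was lower by -0.43 (adjusted p = 0.0282), and uniconazole had the lowest arrays, at 159 and 127; leaving out any of 6 arrays ended the call.

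AT1G29660 separated the azole group from prohexadione and daminozide but not from NPA. Its arrays read 2706 and 1734 with paclobutrazol, 2192 and 1559 with propiconazole, 2130 and 1391 with uniconazole, 2259 and 1195 with Brz220, and 1443 and 1480 with Brz91. In the comparison group they read 4427 and 4657 with prohexadione, 3428 and 3292 with daminozide, and 1572 and 1203 with NPA. The NPA arrays lay within the azole range, and the mock arrays, at 5812 and 3363, lay above every azole array. The azole mean was lower than prohexadione by -1.31 (adjusted p = 2.83e-07) and than daminozide by -0.89 (adjusted p = 0.00199), and it differed from NPA by 0.32 (adjusted p = 0.401). The contrast over the 3 compounds, -0.62 ± 0.10, averages over these.

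EXPA8 was called against prohexadione but not against daminozide or NPA. Its expansin protein loosens cell walls, and the gene is induced by both brassinosteroid and gibberellin. The azole arrays ran from 436 to 1345 (median 715), prohexadione gave 2537 and 1667, daminozide 1319 and 1421, and NPA 586 and 437. The azole mean was lower than prohexadione by -1.36 (adjusted p = 0.000398), differed from daminozide by -0.81 (adjusted p = 0.126) and from NPA by 0.42 (adjusted p = 0.508). The difference over the group, -0.58 ± 0.15, passed narrowly (adjusted p = 0.0439) and was lost on leaving out any of 10 of the 16 arrays. Against the mock, at 2740 and 1084, the azole mean was lower by -1.13 (adjusted p = 0.0086). XTH19, whose enzyme cuts and rejoins wall xyloglucan, was lower by -0.67 ± 0.15 (adjusted p = 0.0182), the single compounds lying between -1.03 (Brz220) and -0.31 (Brz91), none called. Its mock arrays, at 2273 and 438, were farther apart than the 10 azole arrays (578 to 2060).

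The comparison group was not uniform. By the number of calls against the mock, the word weak in the name of the comparison held for 1 of its 3 members, daminozide. Against the mock, prohexadione had 51 called probe sets (21 higher and 30 lower, 0.295% of those tested) and NPA had 38 (8 higher and 30 lower, 0.22%). These counts set beside those of the azole compounds, which share the same mock arrays, were above uniconazole with 17 (0.0983%), paclobutrazol with 8 (0.0462%) and Brz220 with 17 (0.0983%), and NPA was near propiconazole with 33 (0.191%) and Brz91 with 39 (0.225%). Daminozide had 0 calls by limma, with 1555 probe sets at unadjusted p under 0.05. That number lay within the range of the azole compounds, from 1006 (paclobutrazol) to 1751 (propiconazole), so by it daminozide was not the weaker. With no term for the replicate number, the calls of the 8 compounds against the mock fell from 203 to 24 in all. The azole mean differed from prohexadione in 996 probe sets (526 higher and 470 lower, 5.76%), from NPA in 63 (43 and 20, 0.364%) and from daminozide in 40 (29 and 11, 0.231%). Within the comparison group, prohexadione and NPA differed from each other in 661 probe sets (3.82%). The single azole compounds differed from prohexadione in 629 (propiconazole, 3.64%), 351 (Brz220, 2.03%), 271 (uniconazole, 1.57%), 171 (Brz91, 0.988%) and 44 (paclobutrazol, 0.254%). In 165 of the 273 called probe sets the azole mean lay farthest from prohexadione, in 65 from daminozide and in 43 from NPA. The same shares over all probe sets were not counted, so these counts are not read as particular to the called ones. Over all probe sets the median absolute difference from the azole mean was also largest for prohexadione, at 0.1828, beside 0.1394 for daminozide and 0.1355 for NPA.

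**Figure D2:**
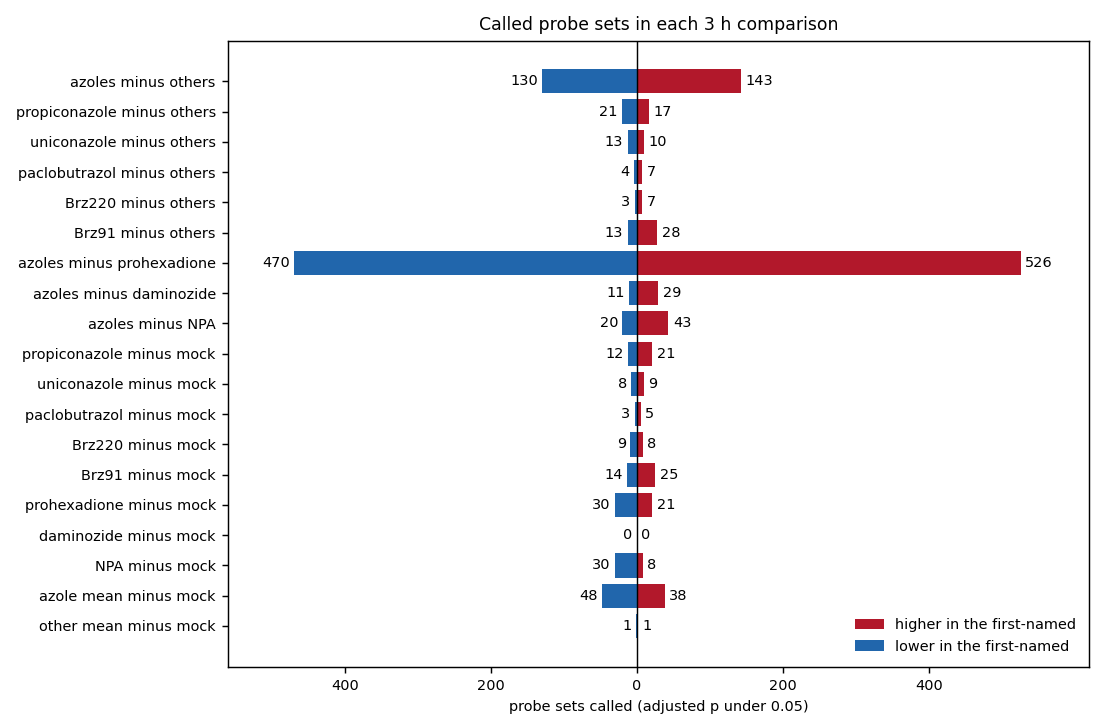
Number of probe sets called in each 3 h comparison (horizontal axis), with those higher in the first-named group to the right and those lower to the left. The azole mean against prohexadione gives 526 and 470, against 143 and 130 for the full contrast and 0 for daminozide against the mock.

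Some named genes were called over the group through 1 comparison compound. GH3.3 ran from 536 to 827 on azole arrays, from 481 to 740 on the prohexadione and daminozide arrays, and read 6548 and 5609 on the NPA arrays. Its difference was -3.02 against NPA (adjusted p = 1.14e-09), 0.03 against prohexadione and 0.09 against daminozide, and with NPA left out of the contrast it turned to 0.06. AT1G19960 read 876 and 2437 with prohexadione, between 130 and 199 on the other comparison arrays and between 57 and 236 on the azole arrays. It was lower by -2.47 against prohexadione (adjusted p = 4.79e-07) and differed by 0.11 from daminozide and -0.12 from NPA. OTP81, a gene for organelle transcript processing, was lowest on the prohexadione arrays, at 103 and 213, against 366 to 712 on the azole arrays, and the azole mean differed from prohexadione by 1.34 (adjusted p = 3.47e-06), from daminozide by 0.31 and from NPA by 0.10. AT4G21870 differed by 1.57 from prohexadione (adjusted p = 4.81e-09), by 0.57 from NPA and by -0.13 from daminozide. With prohexadione left out of the contrast, the differences of AT1G19960, OTP81 and AT4G21870 were -0.01, 0.21 and 0.22 and none was called. AT2G23680 instead rested on daminozide, whose arrays read 30.2 and 80.0 against 240 to 370 in the azole group (1.30, adjusted p = 0.00537).

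**Figure D3:**
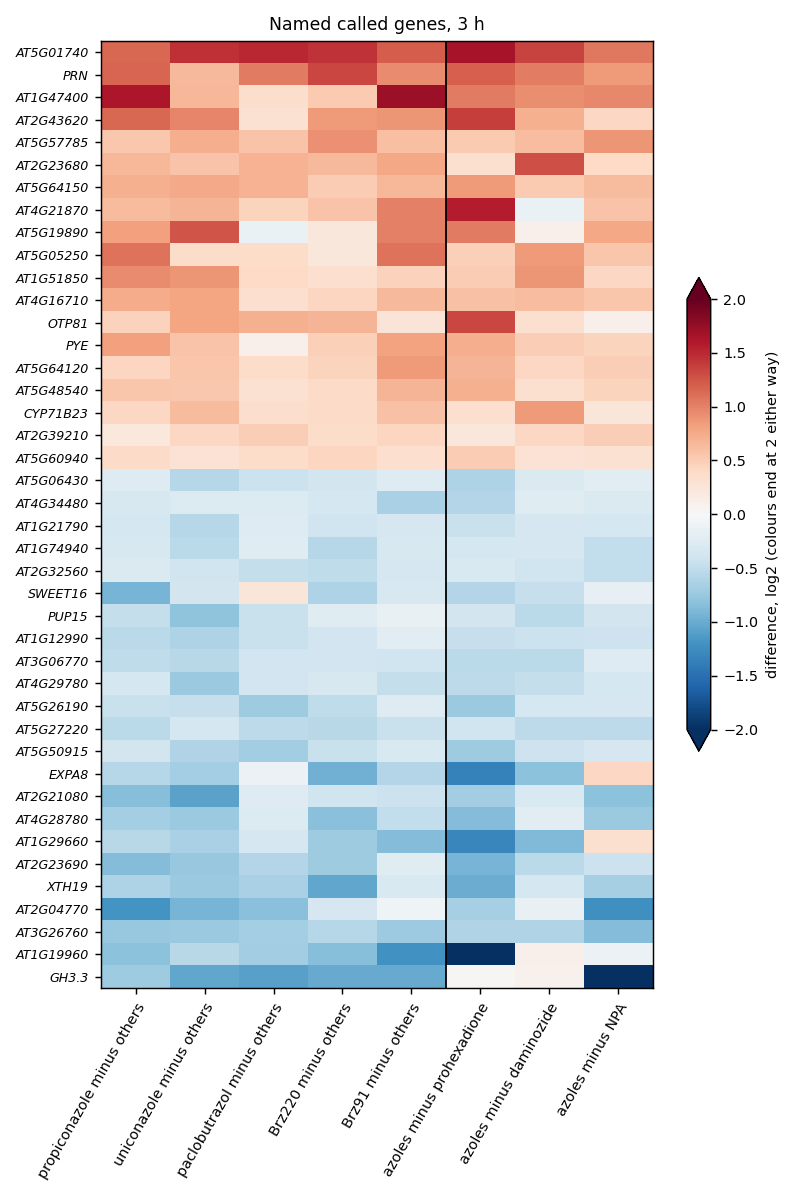
Log2 differences at 3 h for the 42 named genes called in the contrast, in order of the full difference from the highest at the top. The first 5 columns give each azole compound minus the comparison group and the last 3 the azole mean minus each comparison compound; red is higher and blue lower in the azole group, with colours ending at 2 either way. AT5G01740 and PRN are red in all 8 columns, while GH3.3 and AT1G19960 are deep blue against NPA and against prohexadione, respectively.

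The mock arrays, which had no weight in the contrast, place each called probe set relative to untreated seedlings. The mock mean lay nearer to the comparison group in 163 of the 273 (86 of the higher and 77 of the lower) and nearer to the azole group in 110, beside 50% over all probe sets. It lay between the groups in 181, beyond the comparison group in 67 and beyond the azole group in 25. The shares of these over all probe sets were not counted, and choosing probe sets by a wide gap favours a mock between the groups. The azole mean differed from the mock, in the same direction, in 43 of the 273, and the mean of the comparison group differed from it in 0 by limma. The same azole arrays chose the 273, which favours the same direction. The comparison mean averages compounds that differ, and prohexadione and NPA had 51 and 38 calls of their own against the mock. Over all probe sets the azole mean had 86 calls against the mock (38 higher and 48 lower, 0.497%) and the comparison mean had 2 (0.0116%). The 3 called genes whose mock lay nearest to the comparison group were AT4G16710, PUP15 and AT2G39210, with differences of 0.59, -0.43 and 0.38. The 3 whose mock lay nearest to the azole group were AT2G04770, AT2G23690 and AT5G06430, at -0.68, -0.63 and -0.37, so for these the mock and azole levels were within 0.01 of each other on the log2 scale. The calls of AT4G16710 and AT2G04770 were each lost on leaving out any of 11 of the 16 arrays, and those of AT2G39210 and AT5G06430 on any of 5.

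**Figure D4:**
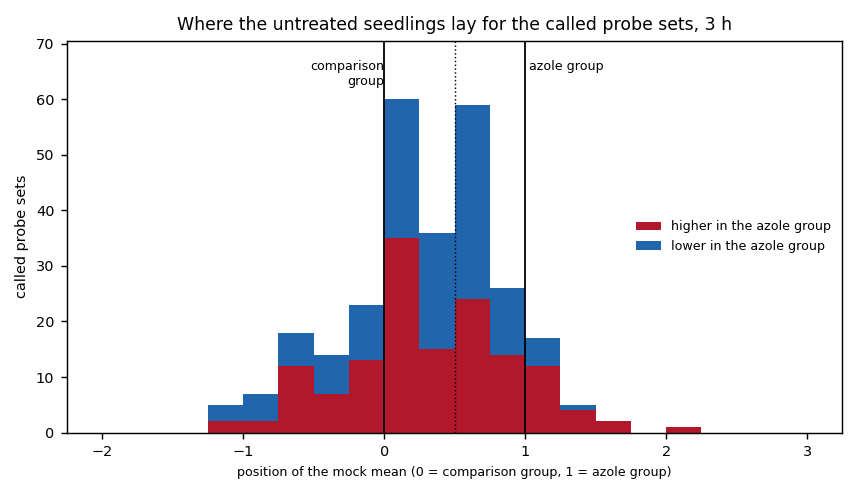
Number of called probe sets (vertical axis) by the position of the mock mean between the groups (horizontal axis, 0 at the mean of the comparison group and 1 at that of the azole group), with probe sets higher in the azole group in red and lower ones in blue. Of the 273, 163 lie left of the dotted midline and 110 right of it, and the values run from -1.16 to 2.03.

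Taken singly, the azole compounds differed from the comparison group in 41 probe sets for Brz91 (0.237%), 38 for propiconazole (0.22%), 23 for uniconazole (0.133%), 11 for paclobutrazol (0.0636%) and 10 for Brz220 (0.0578%). At unadjusted p under 0.05 there were 1395, 2212, 1960, 1076 and 1379, in the same order. These 5 comparisons share the 6 comparison arrays. Of the named genes, AT1G51850 was called with propiconazole alone (0.94, adjusted p = 0.0403), with uniconazole at 0.88 (adjusted p = 0.0724). AT5G19890 was called with uniconazole alone (1.26, adjusted p = 0.0352), with Brz91 at 1.00 and paclobutrazol at -0.13, neither called, and its call over the group ended on leaving out any of 10 arrays. AT2G43620 was higher by 0.83 over the group (adjusted p = 0.0104) with no single compound called, and its Brz91 arrays read 7283 and 1609. SWEET16, a vacuolar sugar transporter gene, differed by -0.93 with propiconazole and 0.24 with paclobutrazol, and its call over the group (-0.40, adjusted p = 0.0494) was lost on leaving out any of 15 of the 16 arrays.

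All 28 pairs of the 8 compounds were compared at the matched dose and time, with p-values adjusted over the 28 pairs and all probe sets together. Adjusted within each pair alone, 9 of the 10 pairs of azole compounds had 0 calls by limma, with between 409 and 1186 probe sets at unadjusted p under 0.05, and propiconazole minus paclobutrazol had 2 (0.0116%). Adjusted over the 28 pairs together, which is less strict for a pair with few small p-values, propiconazole and paclobutrazol differed in 13 probe sets (0.0751%), paclobutrazol and Brz91 in 7 (0.0405%), propiconazole and Brz91 in 5 (0.0289%), uniconazole and Brz91 in 4 (0.0231%), Brz220 and Brz91 in 4 (0.0231%) and uniconazole and paclobutrazol in 1 (0.00578%). The 4 remaining azole pairs had 0. A missed threshold does not show that 2 compounds acted alike: the median half-width of the 95% interval of a pair difference was 0.42, and the interval lay wholly within 1 either way for between 90.3% and 93.3% of probe sets in the 10 azole pairs.

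Uniconazole and paclobutrazol differ by a carbon-carbon double bond in uniconazole where paclobutrazol has a single bond. AT1G72140 was lower with uniconazole by -1.19 (95% interval -1.71 to -0.68, adjusted p = 0.0279 over the 28 pairs and 0.598 within the pair). For AT5G01740 the difference between them was -0.06 (interval -0.49 to 0.37), for PRN -0.40 (-0.85 to 0.05), for AT1G29660 -0.31 (-0.70 to 0.08), for AT1G47400 0.31 (-0.26 to 0.88) and for PYE 0.48 (0.12 to 0.84, adjusted p = 0.343), so none of these 5 was called.

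Propiconazole and paclobutrazol, both triazoles, had the most calls of the azole pairs. AT1G47400 was higher with propiconazole by 1.26 (interval 0.70 to 1.83, adjusted p = 0.0373 over the 28 pairs), and SWEET16 was lower by -1.18 (-1.60 to -0.75, adjusted p = 0.00522). AT4G33730 and AT2G30930 were lower with propiconazole by -1.30 and -1.01 and LHCB4.3, which encodes a protein of the photosystem antenna, was higher by 0.84. AT1G47400 and LHCB4.3 were also lower with paclobutrazol than with Brz91, by -1.35 (-1.92 to -0.78, adjusted p = 0.0227) and -1.01 (-1.40 to -0.62, adjusted p = 0.0101). Between propiconazole and Brz91, in contrast, AT1G47400 differed by -0.09 (-0.66 to 0.48), and AT3G01350 and AT5G18350 were lower with propiconazole by -1.36 and -1.56. Brz220 and Brz91 differed in AT1G65230 by -0.68 (adjusted p = 0.0443), and in AT1G47400 by -1.19 (-1.75 to -0.62), which missed the threshold over the pairs (adjusted p = 0.0589). Adjusted within each pair alone, the pairs of Brz91 with another azole compound had 0 calls. Propiconazole minus paclobutrazol had 0 higher, so AT1G47400 and LHCB4.3 were not called there either. AT5G01740 was called in none of the 10 azole pairs, its largest difference being -0.37 (-0.80 to 0.06) for propiconazole minus paclobutrazol.

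The labels give 12 h arrays for the 5 azole compounds and, of the comparison group, for prohexadione. These 12 arrays had no weight in the 3 h contrast, but the fit drew 1 estimate of the spread of each probe set from all arrays. Calls at the 2 times are therefore not independent, and a shared call is no separate support. At 12 h the azole mean differed from prohexadione in 258 probe sets (152 higher and 106 lower, 1.49%). Of the 273 called at 3 h, 211 had the same sign at 12 h, beside 55.5% of all probe sets, 43 were called with the same sign (27 higher and 16 lower) and 0 with the opposite sign by limma. AT5G01740 then read between 3158 and 5779 on the 10 azole arrays and 701 and 1052 with prohexadione, a difference of 2.21 (adjusted p = 1.48e-12). AT5G64120 was higher by 0.91 (adjusted p = 0.000143) and AT3G06770 lower by -0.53 (adjusted p = 0.00675).

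**Figure D5:**
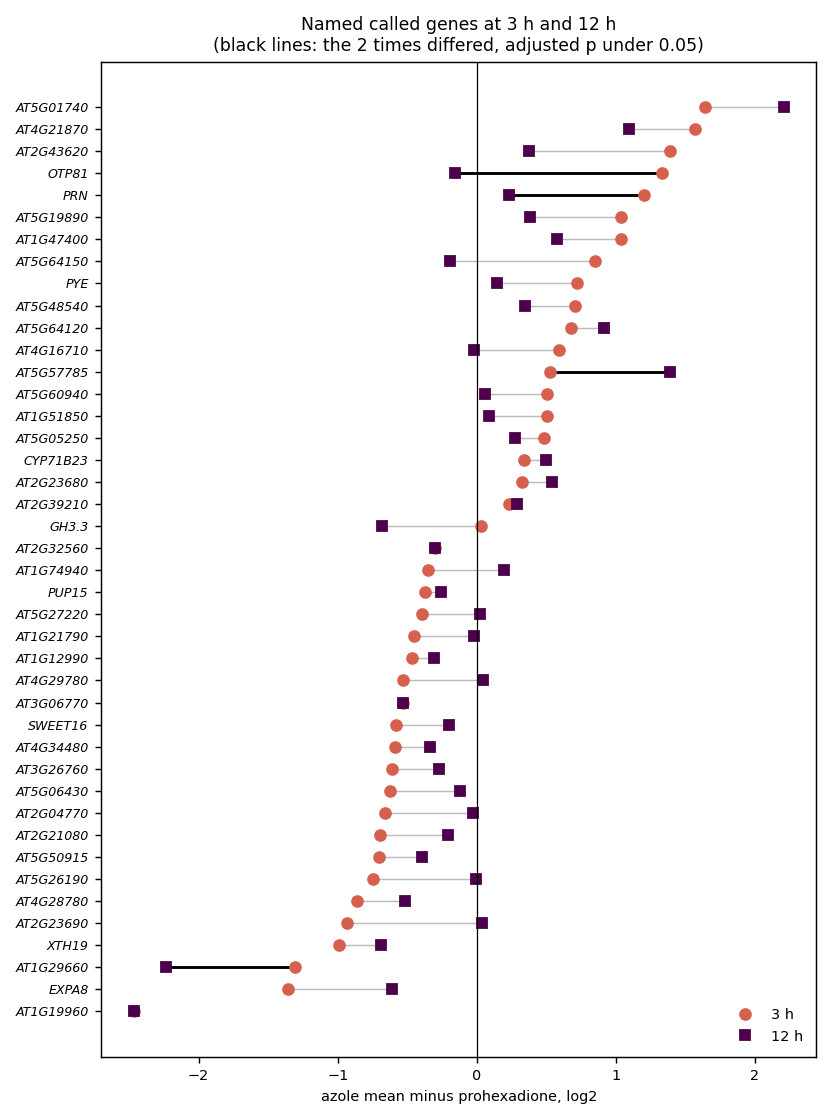
Azole mean minus prohexadione on the log2 scale (horizontal axis) for the 42 named genes, at 3 h (circles) and 12 h (squares). Black lines mark the 4 genes in which the 2 times differed: OTP81 moved from 1.34 to -0.15 and PRN from 1.20 to 0.23, while AT5G57785 moved from 0.52 to 1.39 and AT1G29660 from -1.31 to -2.23.

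The difference between the times was itself tested and was called in 312 probe sets (1.8%), of which 33 belonged to the 273. With no term for the replicate number it was called in 1. The times also differ in bracket, F1 at 3 h and F2 at 12 h, so time and bracket cannot be told apart. AT1G29660 grew more distant from prohexadione, from -1.31 to -2.23, a further -0.93 (adjusted p = 0.0138), with 12 h intensities of 340 to 1161 on the azole arrays against 3770 and 3280. AT5G57785 gained 0.87 (adjusted p = 0.0304). PRN lost most of its difference, from 1.20 to 0.23 (adjusted p = 0.0288), and at 12 h its azole arrays, at 946 to 2040, overlapped prohexadione at 855 and 1577. In the iron list, PYE and AT1G47400 differed from prohexadione by 0.14 and 0.58 at 12 h, neither called (adjusted p = 0.795 and 0.232), and at that time Brz220 had the highest AT1G47400 arrays, at 5242 and 5150. The change with time of these was not called (adjusted p = 0.122 and 0.521).

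Brz220 was also given at 3 µM for 3 h in bracket G, against a mock of its own. There PRN was higher by 1.28 ± 0.22 (adjusted p = 0.00444) and AT5G01740 by 1.04 ± 0.21 (adjusted p = 0.0343). AT5G57785 and AT1G29660 differed by 0.85 (adjusted p = 0.102) and -0.84 (adjusted p = 0.0935), and AT1G47400 and PYE by -0.23 and 0.08 (both adjusted p = 1). The dose and the bracket differ from those of the contrast, so the values are given side by side only.

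Other gene groups showed few calls. Of the 40 lists, chosen with earlier results of these data known, 24 had a measured member, and the 140 measured members were a small part of the 1247 listed. Expansins had 0 higher and 1 lower of 15 (EXPA8, median -0.11), xyloglucan endotransglucosylases 0 and 1 of 8 (XTH19, median -0.19), auxin response genes 0 and 1 of 9 (GH3.3, median -0.13) and cytochromes P450 1 and 0 of 14 (CYP71B23, 0.47 ± 0.13, adjusted p = 0.0475, median 0.09). The call of CYP71B23 was lost on leaving out any of 12 of the 16 arrays. Over all probe sets 0.827% were higher and 0.751% lower, and with no term for the replicate number these lists held 0 calls by limma except the 1 of auxin response. The brassinosteroid-induced list had 2 measured members, EXPA8 and EXO, the latter at -0.28 (adjusted p = 0.166). The list of gibberellin synthesis and receptor genes had 0 calls among 4, with GID1C, a gibberellin receptor, at -0.21. XERICO, held in the same list although it encodes neither a synthesis enzyme nor a receptor, was at -0.19. No call by limma was made among the 32 UDP-glycosyltransferases (6 at unadjusted p under 0.05), the 8 glutathione transferases (2), the 6 WRKY factors (0), the 6 helix-loop-helix factors of that list (3) and the 3 flavonoid genes (0). Of the sterol pathway, CPI1 alone was measured, at -0.08 ± 0.07 (adjusted p = 0.591). Neither the 6 root markers (median -0.14) nor the 2 green tissue markers, LHCB4.3 at 0.35 and RCA at -0.52, included a call.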

How the data were processed

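Total RNA of seedlings was measured on Affymetrix ATH1 arrays. The authors deposited intensities made with MAS5, per the submitters' processing notes (version not given in the sources used here); 22810 probe sets were deposited and 64 control probe sets were left out. Of the rest, 17301 above the 40th percentile of an array on at least 2 arrays were kept, of which 9601 name exactly 1 gene (over all, 13513 name 1, 503 several and 8730 are not listed). Gene names came from the platform annotation and a TAIR10.1 gene table, which matched 9561 of these. No coordinates are printed, since the files name no build, and no sequence was used.

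All deposited arrays of 1 replicate number in 1 bracket share a level: the 2% trimmed mean averaged 1523.5 for replicate 1 and 1219.7 for replicate 2 in F1. Values were log2(intensity + 133.4), with the typical (median) 20th percentile of an array as pseudocount. limma 3.58.1 in R 4.3.3 was fitted to all 60 arrays with 1 mean per group, replicate number within bracket as a block (27 residual degrees of freedom), an intensity trend and Benjamini-Hochberg adjustment. Precision is limited by how few arrays there are; the contrast had a median SE of 0.11. The fit was also run on simulated arrays with known changes. Their replicate effect was drawn from this same fit, so that run cannot judge whether the block suits the data.

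The members, gene lists and tests were chosen with earlier results of these data known. The genes named are up to 12 called genes in each direction in which the groups did not overlap within replicate numbers (7 higher, all there were, and 12 lower), called list members, the 2 members of each list with the largest difference, the 2 called genes farthest each way for each azole compound and pair, the 3 called genes with the mock nearest each group, and 5 further loci whatever their value, of which CYP51G1 was not measured. A gene with several probe sets is given by its brightest. Alternatives were no block, quantile normalization, rescaling, smaller pseudocounts, no filter, fewer arrays in the fit, compounds as replicates, and leaving out each compound or array.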

Additional observations from a re-analysis of the deposited data

Results flagged for a closer look

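Among 84 sets of arrays (azole or comparison arrays of 1 called gene), 7 held an array set apart from the rest, measured as the gap to the next array over the whole range. In the azole group these were AT5G64150, low with Brz220 replicate 1 (gap 0.503, intensity 319), and AT4G34480, low with Brz91 replicate 1 (0.624, intensity 454). In the comparison group they were AT5G60940, low with prohexadione replicate 1 (0.81), AT5G50915, high with prohexadione replicate 2 (0.664), PUP15, high with daminozide replicate 2 (0.932), AT1G21790, high with prohexadione replicate 2 (0.834), and PYE, low with prohexadione replicate 1 (0.664). The gaps are taken after the replicate block, so the arrays named need not hold the extreme raw intensity.

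In 4 of 42 called genes the difference between the azole mean and prohexadione changed from 3 h to 12 h. PRN changed by -0.97 and OTP81 by -1.49, both toward no difference, while AT5G57785 changed by 0.867 and AT1G29660 by -0.926, both away from it.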

How the results depend on the processing

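The replicate numbers pair arrays by their scaling, but deviations of arrays with the same number did not all run together: the correlations of the replicate 1 minus 2 differences ran from -0.094 to 0.308 over the 28 pairs of compounds. Without the replicate block the contrast had 12 calls (273 with it), each azole minus the comparison group 13 in all (123), the pairs 87 (1005), each compound minus mock 24 (203), the group means minus mock 9 (88), 12 h 44 (258), the difference between times 1 (312) and the gene lists 2 (7). AT5G01740, PRN, AT3G26760, AT1G47400 and GH3.3 were the 5 of 42 named genes still called. Chosen after seeing the data, rescaling with no replicate block gave 108 calls with 29 of the 42 named genes, and quantile normalization with no replicate block gave 83 with 23. With no filter the contrast had 179 calls and each azole minus the comparison group 81. With the F1 arrays alone the contrast had 122, each azole 75, the pairs 461 and each compound minus mock 120; these fits have fewer degrees of freedom. The 16 arrays alone gave 50 and compounds as replicates 10, including AT5G01740, PRN, AT5G57785 and AT3G26760.

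Leaving out a compound gave 107 calls for propiconazole, 107 for uniconazole, 161 for Brz220, 56 for prohexadione and 837 for NPA. Leaving out 1 array gave 71 (NPA replicate 1) to 499 (NPA replicate 2) calls. The result moved by over 1.5 times also without propiconazole replicate 1 (132), uniconazole replicate 1 (168) and 2 (173), paclobutrazol replicate 2 (144), prohexadione replicate 1 (169), Brz220 replicate 2 (107) and daminozide replicate 2 (102). Of the 42 named genes 16 kept their call whichever array was left out, among them AT5G01740, PRN, AT3G26760, AT1G47400, PYE, AT5G57785 and AT1G29660. The named difference that turned was GH3.3, at 0.0595 with NPA left out of the contrast. Apart from the smaller fits, the cause was not tested.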
